A study of Mus musculus with 2 samples.

Results

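H3K4me3, a histone mark found at the starts of transcribed genes, was measured in lung group 2 innate lymphoid cells (ILC2s) at the genes of the mitochondrial solute carrier family SLC25. The genes were the autosomal protein-coding genes of the GENCODE vM21 annotation whose symbol begins with Slc25a and a number, 43 genes of the 20807 that are autosomal and protein-coding. Each library came from about 3000 lung ILC2s of 8-week-old offspring for which the labels give no treatment of their own. In 1 library the mother had received PBS with alum and then intranasal PBS, and she is called the control mother. In the other the mother had received repeated doses of ovalbumin (OVA), and she is called the asthmatic mother. The doses were 100 µg each with alum before mating and 500 µg each intranasally from days 4 to 17 of gestation. The libraries are called the control library and the asthmatic library. Wild-type animals of the study were C57BL/6J mice, and how many offspring gave the cells of a library, and their sex, are not given in the sources used here. The method was CATCH-seq, a carrier-assisted native ChIP-seq that cuts chromatin with micrococcal nuclease. With 1 library per group no value has a replicate and nothing could be tested between the groups. Each group came from a single dam, so litter and treatment cannot be told apart. Each difference given here is one between a pair of libraries.

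SLC25 carriers are membrane proteins, nearly all of the mitochondrial inner membrane, that pass nucleotides, phosphate, keto acids, amino acids, cofactors and metal ions between the cytosol and the matrix. They join glycolysis and amino acid use in the cytosol to the citric acid cycle and oxidative phosphorylation. A start with H3K4me3 is usually one that can be transcribed, while the width or strength of the mark is not itself a measure of transcript number or of transport.

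A gene was counted as marked when any base of a peak lay within 1000 bp of any of its annotated transcript starts, and such a peak is called a start peak. The mark was present at most of the family. In the control library 34 of 43 genes had a start peak (79.1%, exact Clopper-Pearson 95% interval 64 to 90%), against 52.5% of all autosomal protein-coding genes. In the asthmatic library 28 of 43 did (65.1%, 49.1 to 79%), against 43.7%. The same 28 carriers were marked in both libraries, where 43.1% of all genes were. A start peak in the control library alone was found at 6 carriers (14%, 5.3 to 27.9%), against 9.37% of all genes. None had one in the asthmatic library alone, for which the exact upper limit of 0 of 43 is 8.22%, against 0.634% of all genes. Neither library had a start peak at 9 carriers (20.9%, 10 to 36%), against 46.9% of all genes. Of the carriers marked in the control library 82.4% were also marked in the asthmatic library, next to 82.1% of all genes, so at the deposited threshold the share missing from the asthmatic list was 17.6% for carriers and 17.9% for all genes. With a −log10 q of at least 5 in both lists it was 38.2% (13 of 34) and 24.7%, and with the 10000 peaks of highest −log10 p it was 73.7% (14 of 19) and 73.7%. These intervals cover counting error only, and the carriers are related genes and not independent draws.

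The mark was read at markers of ILC2s and of other cells. Of 10 ILC2 markers 8 had a start peak in the control library and 6 in the asthmatic library, where all genes gave 52.5% and 43.7%, with Gata3 and Il7r in the former alone and Icos and Klrg1 in neither. No start peak was found in either library at 4 T cell, 4 B cell, 4 macrophage, 3 neutrophil or 3 fibroblast markers. Cdh1 and Epcam of 4 epithelial markers and Kdr of 3 endothelial markers had one in the control library alone, the same pattern as the 6 carriers. The study sorted adult lung ILC2s by CD45 and ST2 without lineage markers, and epithelial cells by EpCAM without CD45. The part of other cells in those 6 carriers was not tested. The lists held 42126 and 51610 peaks, with a median of 21 and 18 fragments at the summit, the position of highest signal. The fragments at each summit were solved from the fold and p-value of the peak, as described with the processing. The smallest background solved from the lists was 1.83 and 1.57 fragments, and the smallest peak was 190 and 156 bp wide. Divided by that width, the smallest background was 96.1 fragments per 10 kb in the control library and 100.4 in the asthmatic library. The difference in smallest background therefore does not by itself show a shallower asthmatic library. Fragment counts were not scaled between the libraries, so a ratio below 1 does not by itself show less mark. A start peak missing from its list means only that none was called there.

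The DNA around a few of the starts is shown beside their marks. RefSeq gives a window of 300 bases on GRCm38.p6, 250 before to 50 from the start on, for 32 of the 43 carriers (74.4%), which is too few to describe GC content or motifs over the family. Windows are therefore shown as examples for 9 carriers, chosen as those of highest rank, those marked in the control library alone with the highest −log10 q, and the first by number with no start peak, each passing over carriers with no window. Capitals mark exact matches, on either strand, to the motif of NRF1 (CGCANGCG), the motif of ETS factors (CCGGAAG), the motif of YY1 (AAGATGG) and the cyclic AMP response element or CRE (TGACGTC). They also mark the CCAAT box, spelled as named, and the letters TATAAA. The GC box (GGGCGG) was counted but is left in lower case. A match is a description of the letters and not evidence of binding.

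The first set holds the carriers of highest mean rank that have a window. Slc25a37 and Slc25a46 ranked higher. The set is Slc25a3, the phosphate carrier (chr10:91123918-91124217, minus strand), Slc25a16, which has been linked to coenzyme A transport (chr10:62920383-62920682, plus strand), and Slc25a1, the citrate carrier (chr16:17928170-17928469, minus strand).
Slc25a3: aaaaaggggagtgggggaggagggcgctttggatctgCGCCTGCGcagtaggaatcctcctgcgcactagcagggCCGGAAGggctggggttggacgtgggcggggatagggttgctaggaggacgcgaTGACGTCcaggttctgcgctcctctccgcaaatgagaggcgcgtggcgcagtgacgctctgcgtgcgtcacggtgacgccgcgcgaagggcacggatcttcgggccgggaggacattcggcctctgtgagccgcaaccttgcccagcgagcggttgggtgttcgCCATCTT
Slc25a16: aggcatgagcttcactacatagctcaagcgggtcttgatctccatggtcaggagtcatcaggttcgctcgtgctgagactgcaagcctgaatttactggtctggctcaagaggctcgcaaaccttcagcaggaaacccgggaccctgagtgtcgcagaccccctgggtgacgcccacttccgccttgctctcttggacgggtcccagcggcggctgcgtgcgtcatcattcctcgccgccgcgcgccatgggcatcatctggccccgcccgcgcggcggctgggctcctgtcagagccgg
Slc25a1: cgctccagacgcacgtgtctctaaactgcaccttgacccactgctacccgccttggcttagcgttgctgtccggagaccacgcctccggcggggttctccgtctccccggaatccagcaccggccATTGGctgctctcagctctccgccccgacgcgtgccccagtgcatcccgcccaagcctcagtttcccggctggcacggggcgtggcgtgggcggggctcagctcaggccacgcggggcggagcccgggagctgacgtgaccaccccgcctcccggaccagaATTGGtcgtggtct

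The second set was marked in the control library alone. These are Slc25a17, the peroxisomal cofactor carrier (chr15:81360716-81361015, minus strand), Slc25a22, a glutamate carrier (chr7:141437825-141438124, minus strand), and Slc25a39, the glutathione carrier (chr11:102407468-102407767, minus strand).
Slc25a17: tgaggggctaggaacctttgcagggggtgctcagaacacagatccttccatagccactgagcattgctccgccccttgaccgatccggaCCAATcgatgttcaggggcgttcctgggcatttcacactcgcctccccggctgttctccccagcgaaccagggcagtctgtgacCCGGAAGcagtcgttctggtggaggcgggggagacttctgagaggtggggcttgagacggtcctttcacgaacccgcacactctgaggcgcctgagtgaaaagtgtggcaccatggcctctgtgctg
Slc25a22: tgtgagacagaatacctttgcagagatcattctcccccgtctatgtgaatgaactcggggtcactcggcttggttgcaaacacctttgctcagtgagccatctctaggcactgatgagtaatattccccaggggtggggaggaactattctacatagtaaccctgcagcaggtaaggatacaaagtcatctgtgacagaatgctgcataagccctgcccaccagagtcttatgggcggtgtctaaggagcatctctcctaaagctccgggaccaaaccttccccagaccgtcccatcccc
Slc25a39: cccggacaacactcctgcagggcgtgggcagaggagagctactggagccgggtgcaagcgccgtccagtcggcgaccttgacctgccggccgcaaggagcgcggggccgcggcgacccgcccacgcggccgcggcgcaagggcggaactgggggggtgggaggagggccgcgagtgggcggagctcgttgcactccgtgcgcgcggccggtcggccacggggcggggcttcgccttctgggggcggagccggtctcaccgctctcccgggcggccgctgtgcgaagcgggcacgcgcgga

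The third set had no start peak in either library. These are Slc25a18, a glutamate carrier (chr6:120773518-120773817, plus strand), Slc25a21, the oxoadipate carrier (chr12:57197423-57197722, minus strand), and Slc25a31, the ADP/ATP carrier of germ cells (chr3:40708621-40708920, plus strand).
Slc25a18: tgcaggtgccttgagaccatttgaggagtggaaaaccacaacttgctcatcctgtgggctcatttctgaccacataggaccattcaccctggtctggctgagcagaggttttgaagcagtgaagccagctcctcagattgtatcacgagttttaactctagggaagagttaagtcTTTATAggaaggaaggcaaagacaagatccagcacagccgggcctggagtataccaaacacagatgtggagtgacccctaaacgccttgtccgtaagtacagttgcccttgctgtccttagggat
Slc25a21: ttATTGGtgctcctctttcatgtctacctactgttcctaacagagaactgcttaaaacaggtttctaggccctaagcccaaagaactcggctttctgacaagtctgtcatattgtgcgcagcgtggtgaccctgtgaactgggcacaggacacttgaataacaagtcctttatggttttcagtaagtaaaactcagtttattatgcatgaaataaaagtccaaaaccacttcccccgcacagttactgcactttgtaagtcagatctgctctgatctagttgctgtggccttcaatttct
Slc25a31: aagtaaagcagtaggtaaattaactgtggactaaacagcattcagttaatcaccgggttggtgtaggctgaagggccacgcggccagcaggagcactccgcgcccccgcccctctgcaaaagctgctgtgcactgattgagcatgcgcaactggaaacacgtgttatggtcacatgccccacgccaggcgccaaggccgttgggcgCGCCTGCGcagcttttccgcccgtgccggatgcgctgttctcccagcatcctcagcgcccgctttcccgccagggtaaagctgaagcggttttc

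The windows of the first set held 31 CpG dinucleotides in Slc25a3, 24 in Slc25a16 and 30 in Slc25a1, next to a median of 23 over genes marked in both libraries. Slc25a3 held NRF1, ETS and CRE matches before the start and a YY1 match after it, at positions −213, −175, −121 and 43 counted with the start as 0 and by the first base of the match along the gene. Slc25a1 held CCAAT matches at −125 and 36 and 4 GC boxes, and Slc25a16 held a single GC box. The second set was mixed. Slc25a39 had 45 CpGs and 6 GC boxes, Slc25a17 had 15 CpGs, an ETS match at −77 and a CCAAT match at −161, and Slc25a22 had 6 CpGs. The Slc25a17 window had 135 bases in its control peak, with the CCAAT match outside that peak. The window of Slc25a22 holds no base of its control start peak, which lies at another of its starts, so it does not describe the marked start. In the third set Slc25a18 and Slc25a21 had 4 CpGs each, with a TATAAA match at −75 in the former and a CCAAT match at −248 in the latter. Slc25a31 was the exception, with 22 CpGs and an NRF1 match at −44 at an unmarked start. Over all windows, of 15686 genes, the median was 15 CpGs, NRF1 matched in 12%, ETS in 12.6%, YY1 in 6.42%, CRE in 4.18%, the GC box in 48.8%, CCAAT in 38.4% and TATAAA in 12.9%. Among the 7064 of these genes marked in both libraries the NRF1 share was 20.4% and the ETS share 21.9%, and among the 7027 marked in neither they were 2.9% and 2.82%.

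Most of the strongest start peaks had their summit after the start, though some start peaks, such as those of highest −log10 q at Slc25a40, lay wholly before it. The summit of the strongest start peak lay a median of 105 bp downstream of the nearest start in the control library (34 genes, range −270 to 674 bp) and 86 bp downstream in the asthmatic library (28 genes, range −502 to 522 bp). It was downstream of that start at 28 of 34 and 22 of 28 carriers. At all 28 carriers marked in both libraries the start peaks of the lists overlapped, with a median of 83 bp between the summits and at most 611 bp. The call was also well clear of the distance limit, since every marked carrier had a peak within 168 bp of a start in each list that marked it, and the nearest peak to an unmarked carrier lay 2585 bp away, at Slc25a45.

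**Figure D1:**
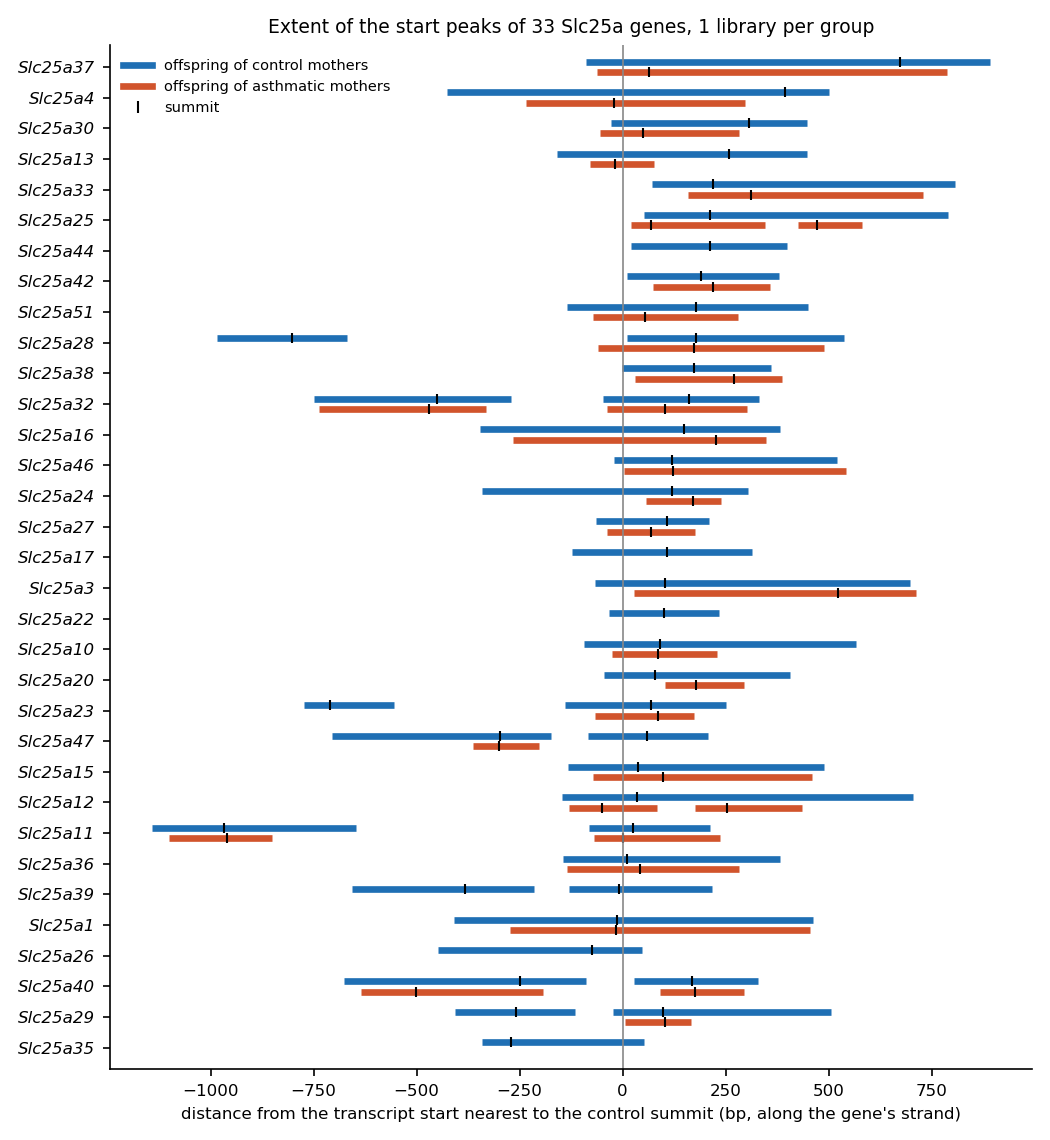
Extent of each start peak (bars) and its summit (ticks) in bp from the transcript start nearest to the control summit, for 33 of the 34 marked carriers, with the control library in blue and the asthmatic library in orange. Asthmatic peaks lie within or over the control peaks and are mostly shorter, and 6 carriers have a blue bar only; an asthmatic peak of Slc25a36 about 27.2 kb from its control summit is outside the plot.

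The carriers of adenine nucleotides and phosphate were marked at 5 of 7 genes in both libraries. Slc25a3, which brings phosphate into the matrix for ATP synthesis, had a start peak of 767 bp in the control library and 687 bp in the asthmatic library, with 37 and 20 summit fragments. Slc25a4, the ADP/ATP carrier of heart and muscle, had 927 and 533 bp, and 24 and 11 fragments. The ratio of fragments was 0.541 (exact 95% interval 0.297 to 0.956) at Slc25a3 and 0.458 (0.203 to 0.972) at Slc25a4. Both ratios were of unscaled counts, for which the median of all genes was 0.611, and divided by the ratio of the smallest backgrounds, 0.858, their upper limits were 1.11 and 1.13. Slc25a31, the paralog of Slc25a4 that is used in germ cells, was unmarked, with the nearest peaks of the 2 lists 36386 and 36390 bp away.

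The ATP-Mg/phosphate carriers, which exchange adenine nucleotides for phosphate under the control of calcium, differed among themselves. Slc25a23 had 611 bp in 2 peaks and 241 bp in 1 peak, and Slc25a25 had 739 bp in 1 peak and 482 bp in 2 peaks. Slc25a24 had 648 and 184 bp, yet 16 summit fragments in each library. Its peak was therefore narrower with no fewer fragments at its summit. Slc25a41, a short form without the calcium-binding part, was unmarked, with the nearest peaks 10109 and 10094 bp away.

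Carriers of amino acids were marked in both libraries at 5 of 9 genes, in the control library alone at 2 and in neither at 2. The aspartate/glutamate carriers of the malate-aspartate shuttle were both marked. Slc25a12 had a single peak of 854 bp in the control library and 2 peaks of 474 bp in all in the asthmatic library, with 23 and 15 fragments. At Slc25a13 the widths were 608 and 156 bp, and 156 bp is the smallest width in the asthmatic list. Of the glutamate carriers, Slc25a22 (chr7:141429744-141437892) had a start peak of 267 bp and 20 fragments in the control library alone, and Slc25a18 had none. Slc25a15, which carries ornithine for the urea cycle, had 623 and 532 bp, while its intronless relative Slc25a2 was unmarked. Slc25a38, the glycine carrier needed for heme, had 362 and 359 bp and 22 and 18 fragments. Slc25a44 (chr3:88410498-88425139), a carrier of branched-chain amino acids, had a peak of 380 bp and 26 fragments in the control library and none in the asthmatic library.

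Slc25a29, the carrier of basic amino acids, and Slc25a47, a less well characterised carrier of liver, lie head to head on chromosome 12 with 163 bp between their starts. The same peaks counted for both, 2 peaks of 823 bp in all in the control library and 1 peak of 161 bp in the asthmatic library. The stronger control peak (20 fragments) had its summit 59 bp downstream of a Slc25a47 start, and the weaker (17 fragments) 36 bp downstream of a Slc25a29 start. The single asthmatic peak had its summit 39 bp downstream of a Slc25a29 start and 265 bp upstream of the nearest Slc25a47 start. Which of the pair carried the mark cannot be told apart from these peaks. Their relatives Slc25a45 and Slc25a48 were unmarked.

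Slc25a20, which brings acylcarnitines into the matrix for fatty acid oxidation, stood among the strongly marked carriers in one list and among the weakly marked in the other. It had 451 bp and 30 fragments in the control library, and 193 bp and 12 fragments in the asthmatic library. The ratio of fragments was 0.4 (exact 95% interval 0.187 to 0.805), the lowest of the family, and its interval still held the median of all genes.

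The carriers of citric acid cycle acids were marked except for Slc25a21. Slc25a1, which exports citrate for fatty acid and sterol synthesis, had 873 and 729 bp, and 29 and 22 fragments. Slc25a10, the dicarboxylate carrier, had 660 and 255 bp, with 26 and 17 fragments. Slc25a11, the oxoglutarate/malate carrier, had 791 and 559 bp, each in 2 peaks, and the upstream one of each list lies toward Rnf167, whose start is 76 bp from one of Slc25a11. Slc25a1 had the smallest difference in width of the marked carriers in this group.

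Carriers of pyrimidine nucleotides, coenzyme A and cofactors were marked in both libraries at 7 of 9 genes and in the control library alone at 2. Slc25a16 had 728 and 616 bp and 35 and 18 fragments, a ratio of 0.514 (exact 95% interval 0.274 to 0.933). Slc25a51, the NAD+ carrier, had 586 and 353 bp, and 28 and 19 fragments. Slc25a32, which carries folate or FAD, had 859 and 749 bp, each in 2 peaks, and 20 and 18 fragments. The wider peak of each list, 480 bp and 407 bp, lies toward Dcaf13, whose start is 149 bp away. Slc25a42, a coenzyme A carrier, had 370 and 284 bp with the lowest counts of the group, 15 and 10 fragments. Slc25a33, a pyrimidine nucleotide carrier, had 737 and 571 bp.

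The other pyrimidine nucleotide carrier, Slc25a36, was the only one of the 28 with a larger summed width in the asthmatic library, 642 against 527 bp. The excess came from a second asthmatic peak of 222 bp (chr9:97083689-97083910) at an internal start about 27.2 kb away. The 75 bases around its summit occur 3 more times on the assembled chromosomes, all overlapping that same peak, so it lies in a tandem repeat. Over the peak at the shared start alone the ratio was 0.797, so that peak was narrower in the asthmatic library, as at the other carriers. The 75 bases at its control summit also occur once more, in a pseudogene on chromosome 2 where that list has no peak.

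The cofactor carriers absent from the asthmatic list were Slc25a17 (chr15:81318911-81360812), which carries coenzyme A, FAD and NAD+ across the peroxisomal membrane, and Slc25a26 (chr6:94500331-94604672), the S-adenosylmethionine carrier. Slc25a17 had 437 bp and 26 fragments, and Slc25a26 had 496 bp and 21 fragments. Slc25a17 had the highest −log10 q of the 6 carriers marked in the control library alone, 17.8.

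Among the glutathione carriers Slc25a39 (chr11:102402985-102407946) was marked in the control library alone, with 788 bp in 2 peaks and 23 fragments. Its paralog Slc25a40 was marked in both, with 893 and 647 bp, each in 2 peaks, one of them toward Dbf4, whose start is 134 bp away. The iron carriers, or mitoferrins, were both marked in both libraries. Slc25a37 (mitoferrin-1) had the widest start peaks of the family in each list, 981 and 851 bp, and the most fragments, 45 and 28. The 75 bases at both of its summits occur once more on chromosome 14, in the gene Gm16867, where a peak was also called in each list, so these fragments cannot be assigned to a single one of the loci. Slc25a28 (mitoferrin-2) had 844 bp in 2 peaks and 551 bp in 1 peak, and 28 and 20 fragments.

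Of the uncoupling-protein relatives, Slc25a27 had 276 and 216 bp and 18 and 17 fragments, and Slc25a30 had 476 and 338 bp and 20 and 10 fragments. Slc25a46, a protein of the outer membrane that acts in fission and lipid traffic, had nearly the same width and counts in the libraries, with 542 and 540 bp and 26 and 24 fragments, although its percentile differed. Of 6 less well characterised carriers only Slc25a47, through the shared peaks, was marked in both libraries. With the starts of protein-coding transcripts alone it had no start peak in either. Slc25a35 (chr11:68968131-68974365) was marked in the control library alone, with 395 bp and 16 fragments, and its relative Slc25a34 was unmarked, as were Slc25a45, Slc25a48 and Slc25a54.

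The mark at the carriers was narrower in the asthmatic library, as it was at genes in general. The summed width of the start peaks was smaller in the asthmatic library at 27 of 28 carriers. Its median ratio was 0.708 (range 0.196 to 1.22), next to 0.627 over all 8968 genes marked in both libraries. A width smaller by 1.5 times or more was found at 13 of 28 carriers (46.4%, exact 95% interval 27.5 to 66.1%), against 56.4% of all genes. A width larger by that much was found at 0 of 28, for which the exact upper limit is 12.3%, against 0.558%. In the control library the 34 carriers had a median width of 635.5 bp and all marked genes one of 639 bp. In the asthmatic library the medians were 478 bp for 28 carriers and 399 bp for all. These shares and ratios overlap with those of genes in general, and the libraries allow no test of the difference.

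**Figure D2:**
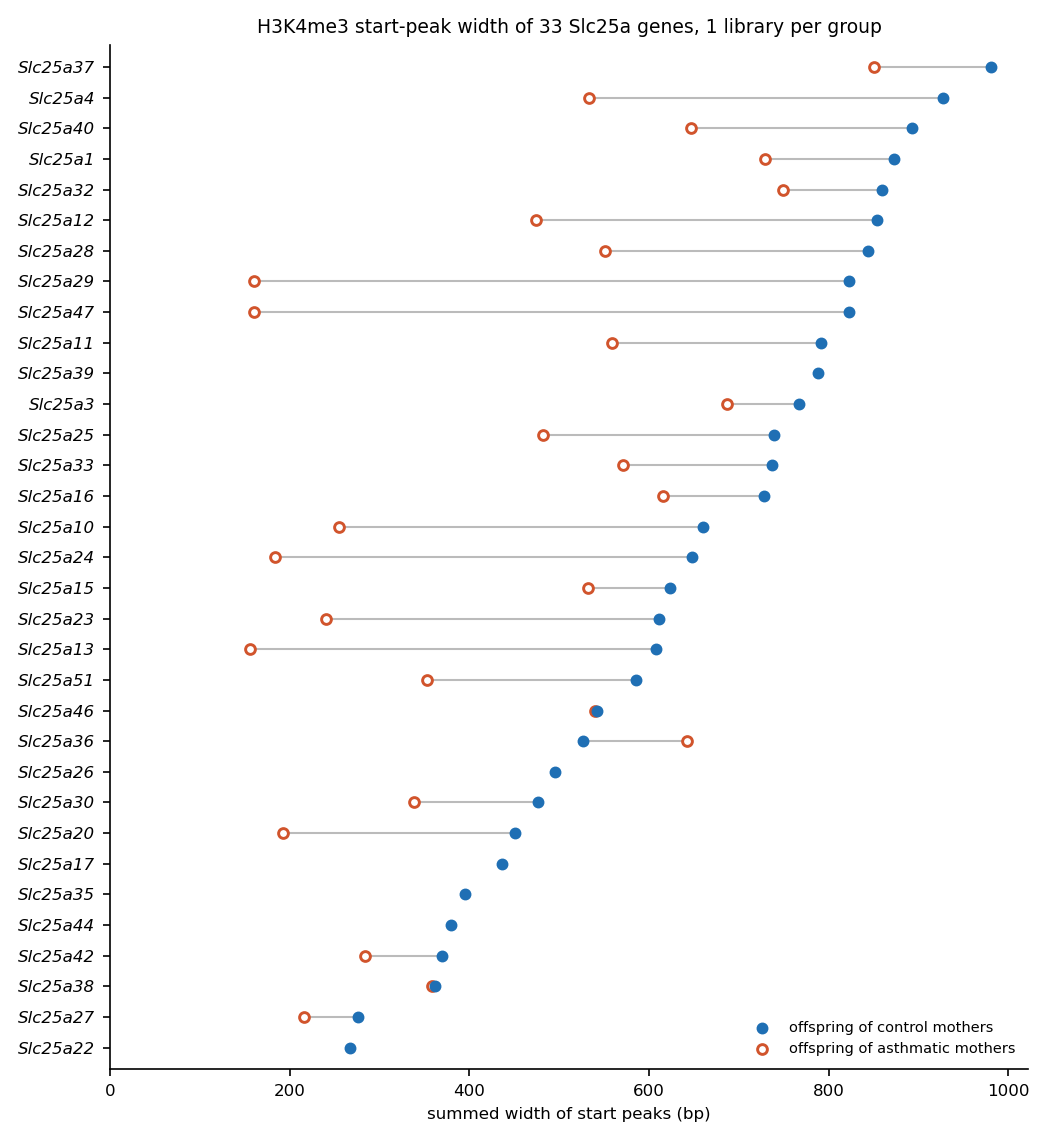
Summed width of the start peaks in bp (x axis) of 33 of the 34 marked carriers, ordered by width in the control library (filled blue), with the asthmatic library as open orange circles. The open circle lies left of the filled one at 26 of 27 plotted carriers with both, the exception being Slc25a36, and 6 carriers have no open circle.

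The ratios of width were spread widely. The smallest ratios were 0.196 at Slc25a29 and Slc25a47, 0.257 at Slc25a13 and 0.284 at Slc25a24. At the other end, after Slc25a36 with 1.22, stood Slc25a46 with 0.996, Slc25a38 with 0.992 and Slc25a3 with 0.896. Slc25a32 and Slc25a37 followed with 0.872 and 0.867. These included the widest control peak of the family, at Slc25a37, and one of the narrowest, at Slc25a38.

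Folds and q-values are not scaled between libraries, so the strength of the mark was read as a rank. The percentile of a carrier is that of the highest −log10 q of its start peaks among all autosomal protein-coding genes with a start peak in the same list. Such genes numbered 10917 in the control library and 9100 in the asthmatic library. The percentiles of the carriers differed between the lists in both directions. Over 28 carriers 14 had a higher and 14 a lower percentile in the asthmatic library, with a median difference of 0.318 points (range −70.8 to 49.8), next to −4.6 over all 8968 genes. Ranked among all peaks of a list instead, the median differences were −20.9 and −21 points. A percentile higher by 20 points or more was found at 7 of 28 (25%), against 18.1% of all genes, and one lower by that much at 7 of 28 (25%), against 29.8%. Neither share lay far from that of genes in general.

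The carriers with the highest mean percentile were Slc25a37 (91.6 in the control library and 92.2 in the asthmatic library), Slc25a46 (76.1 and 98.2) and Slc25a3 (90.8 and 81.9). Slc25a16 (93.9 and 63.7), Slc25a1 (63.4 and 86.1) and Slc25a51 (61.3 and 79.1) came next. The rank of Slc25a37 includes fragments that cannot be told apart from those of its copy at Gm16867.

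Several carriers stood at quite different places in the lists. Slc25a20 had the percentile 80.6 in the control library and 9.8 in the asthmatic library, the widest gap of the family. Slc25a4 (42.4 and 6.77), Slc25a13 (41.1 and 6.77) and Slc25a23 (44.3 and 10.8) were the next lower ones. Slc25a32 (26.3 and 76.1), Slc25a27 (22.3 and 67.4), Slc25a24 (13.2 and 56.8) and Slc25a28 (34.7 and 78) had the largest gaps in the other direction. These genes had no role in common, the first set holding the carnitine carrier, an ADP/ATP carrier, citrin (Slc25a13) and an ATP-Mg/phosphate carrier, and the second a folate or FAD carrier, an uncoupling relative, another ATP-Mg/phosphate carrier and mitoferrin-2. A percentile rests on few fragments here and depends on its list. Slc25a24 differed by 43.7 points with 16 fragments in each library, where all marked genes had medians of 26 and 17.

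**Figure D3:**
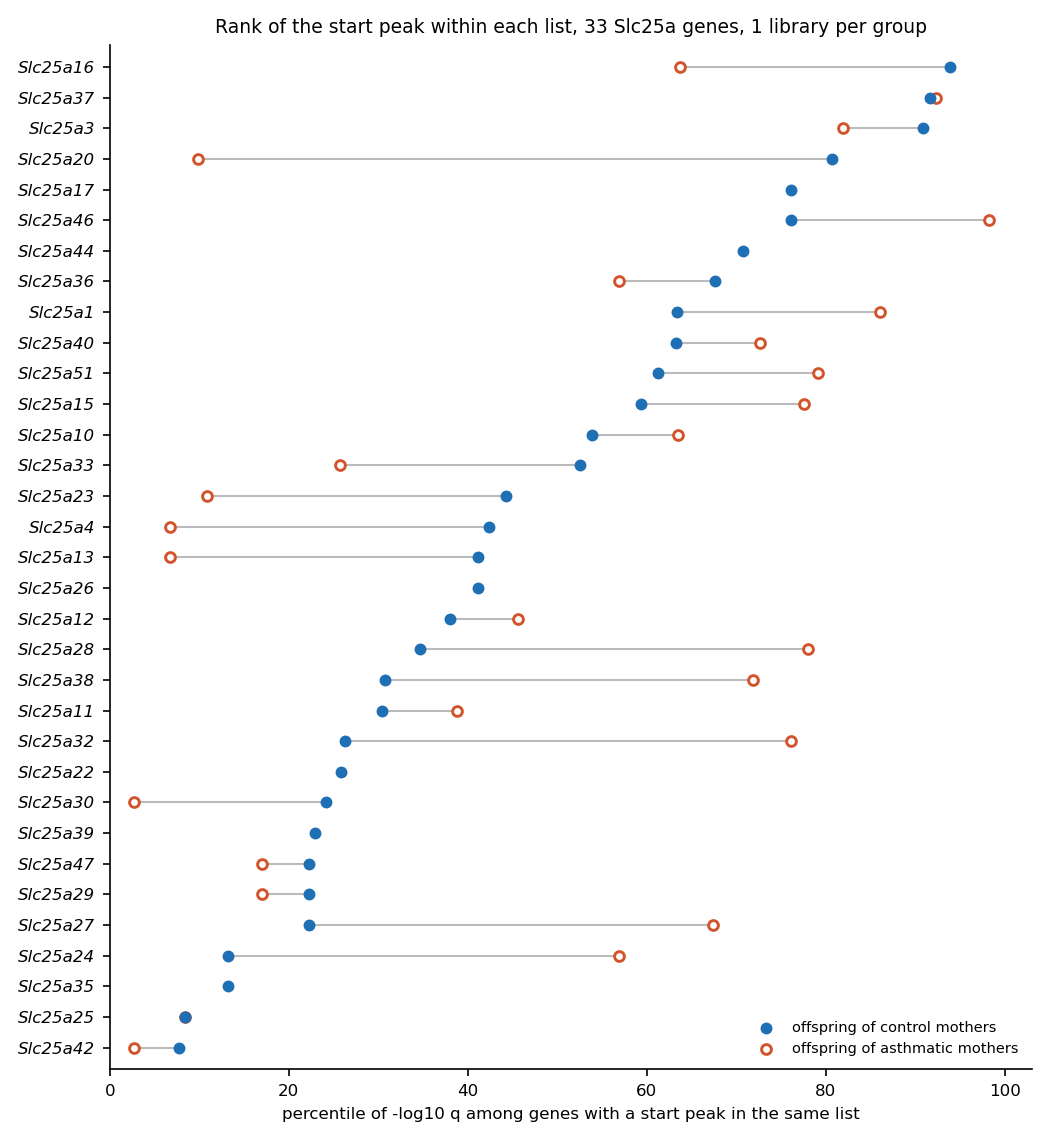
Percentile of the start peak by −log10 q within its own list (x axis, 0 to 100) for 33 of the 34 marked carriers, ordered by the percentile in the control library (filled blue), with the asthmatic library as open orange circles. There are 13 lines to the left and 14 to the right, and the longest belongs to Slc25a20, between 80.6 and 9.8.

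Paralogs were not always marked alike. Of 11 sets of close relatives, Slc25a12 with Slc25a13, Slc25a28 with Slc25a37, Slc25a33 with Slc25a36 and Slc25a27 with Slc25a30 were marked in both libraries throughout. Slc25a39 and Slc25a40 were both marked in the control library, and only Slc25a40 was also marked in the asthmatic library. In each of the other 6 sets at least 1 gene was unmarked in both libraries. The sets held 2 or 4 genes, and 9 of all 43 carriers (20.9%) were unmarked. How many such sets unrelated carriers would give was not computed.

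The fragment counts show how much of this lies within counting error. At 27 of 28 carriers the asthmatic library had fewer fragments at the summit of the strongest start peak, and at Slc25a24 the numbers were equal. The median ratio was 0.646 (range 0.4 to 1), next to 0.611 over all genes marked in both libraries. Exact 95% intervals of the ratio held the median of all genes at 28 of 28 carriers, and lay below 1 at 4, namely Slc25a3, Slc25a4, Slc25a16 and Slc25a20. With the ratios divided by that of the smallest backgrounds only Slc25a20 stayed below 1, with an upper limit of 0.938. The 6 carriers without an asthmatic start peak have no ratio and are not part of these counts. The strongest start peaks of the family had a median of 24 fragments in the control library and 16 in the asthmatic library, next to 26 and 17 over all marked genes.

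**Figure D4:**
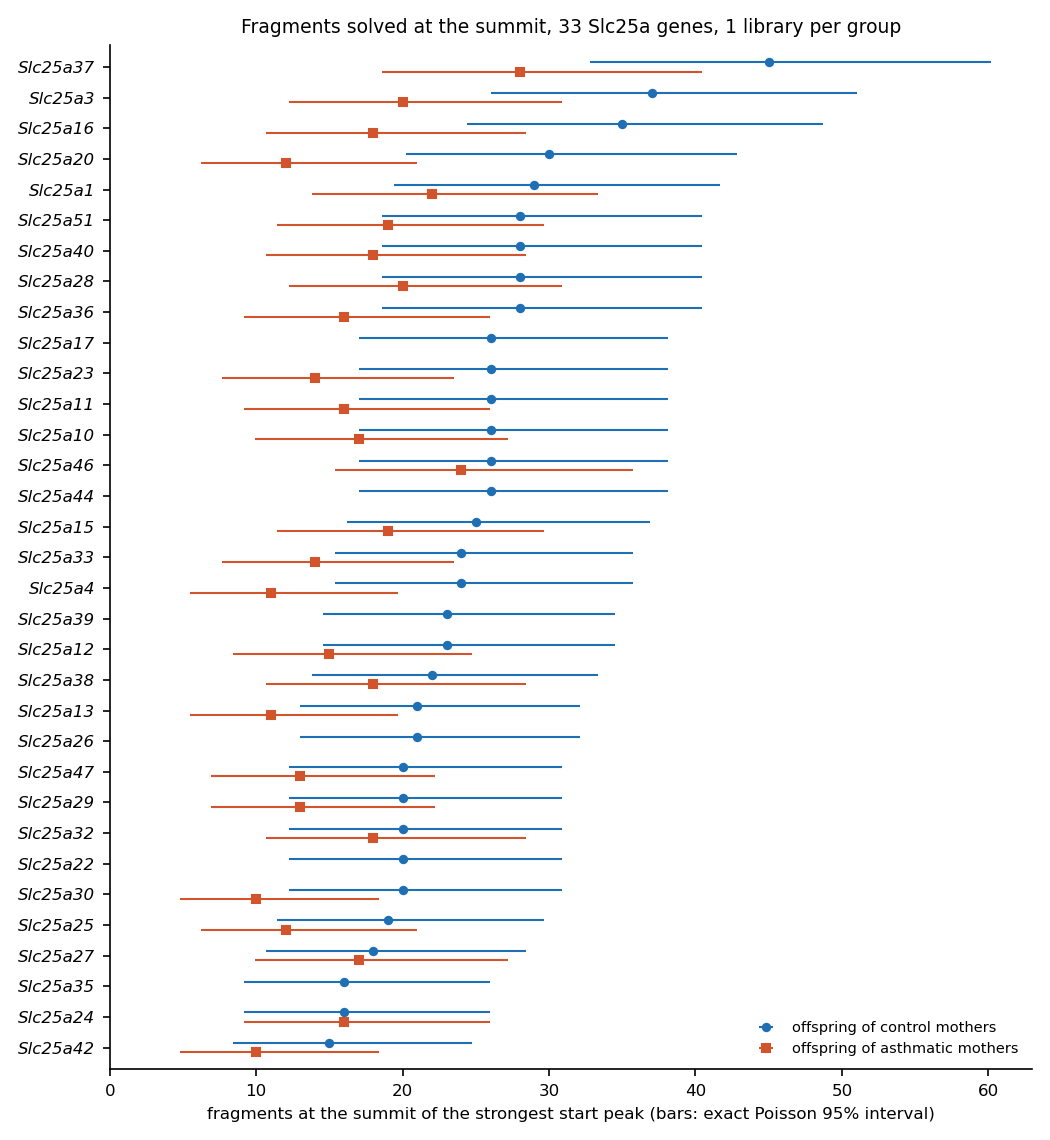
Fragments solved at the summit of the strongest start peak (x axis), with exact Poisson 95% intervals as bars, for 33 of the 34 marked carriers in the control library (blue circles) and the asthmatic library (orange squares). The asthmatic counts, 10 to 28, lie at or below the control counts, 15 to 45, and at every plotted carrier marked in both libraries the intervals overlap.

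The 6 carriers marked in the control library alone had start peaks there with a median of 416 bp, from 267 bp at Slc25a22 to 788 bp at Slc25a39, next to 400 bp over all 1949 such genes. Their −log10 q ran from 7.94 at Slc25a35 to 17.8 at Slc25a17, with Slc25a39 at 9.81, Slc25a22 at 10.4, Slc25a26 at 12.7 and Slc25a44 at 16.8. The nearest asthmatic peak to a start lay between 9471 bp (Slc25a22) and 85896 bp (Slc25a39) away. Slc25a26 had an asthmatic peak inside the gene, away from annotated starts. Among all genes such absences were more frequent at weak control peaks. Of all genes with a −log10 q within 0.5 of that of Slc25a35, 45.6% had no asthmatic start peak, and for Slc25a39, Slc25a22 and Slc25a26 these shares were 27.5%, 22.1% and 12.8%. For Slc25a44 and Slc25a17 they were 5.14% and 4.99%, so that these 2 were absent from the asthmatic list where few genes of like strength were.

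By percentile in the control library, 2 of 9 carriers up to 25 had no asthmatic start peak, 2 of 11 from there to 50, 1 of 8 to 75 and 1 of 6 to 100. Over all genes the shares without one in these ranges were 48.7%, 14.1%, 5.68% and 2.97%. GC content of the control start peaks had a median of 62.7% at the 6 carriers and 68% at the 28 marked in both libraries, next to 64.1% and 66.4% over all such genes. Start peaks of the asthmatic list had a median of 70.2% at the carriers and 68.7% at all genes. The part of GC content in these absences was not tested.

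Unmarked and marked carriers also differed in their annotation. The median number of annotated starts was 5 for the 34 carriers marked in either library and 1 for the 9 unmarked, next to 5 and 2 over all genes, so genes with more starts had more places for a start peak. With the 5′ end of the gene as its only start, each count of marked carriers was the same. Another protein-coding gene starting within 1000 bp on the other strand was found at 9 carriers, all of them marked in both libraries, against 77.9% of the 2638 genes with such a neighbour, and a peak between such genes counts for both. They were Slc25a11, Slc25a23, Slc25a25, Slc25a27, Slc25a29, Slc25a32, Slc25a40, Slc25a46 and Slc25a47.

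Genes of mitochondrial transport and protein import under other symbols were listed too. Ucp1, Ucp2, Ucp3, Mtch1 and Mtch2 among them belong to the same protein family by sequence but not by the symbol rule. Of 29 autosomal genes listed (voltage-dependent anion channels, pyruvate carrier subunits, sideroflexins, calcium uniporter parts, ABC transporters, translocases and uncoupling proteins), 27 were marked in the control library (93.1%, against 52.5% of all genes) and 24 in the asthmatic library (82.8%, against 43.7%), all 24 of them in both. Abcb8, Sfxn3 and Sfxn4 were marked in the control library alone, and Ucp1 and Ucp3, the uncoupling proteins of brown fat and muscle, in neither. Ucp2, the uncoupling protein of immune cells, was marked in both. Over the 24 genes the median ratios were 0.596 for width and 0.619 for fragments, and the median percentile difference was −3.8 points, next to 0.627, 0.611 and −4.6 over all genes.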

How the data were processed

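The peak lists of the 2 libraries, 1 per group, were read as deposited. The authors trimmed the reads (Trim Galore, cutadapt), aligned them to GRCm38 (mm10) with Bowtie2 and removed duplicates. The caller, its threshold and the use of an input library are not given in the sources used here. The study's reporting summary names peak lists among the submitted data, yet also says that no peaks were called on the ChIP-seq data. The authors' lists give each peak a score (10 times the −log10 q, rounded down in nearly all peaks), a ratio or fold of summit signal over background, and the p-value and q-value of the peak on the −log10 scale. The smallest −log10 q was 2.02 and 2.01. Peaks were called per library and are not scaled between them.

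Start peaks, summed widths, percentiles and summit fragments were computed as described with the results, on 20807 autosomal protein-coding genes of GENCODE vM21, whose starts are on GRCm38. Positions count from 1. Fragments were solved as the whole number n for which the fold is (n + 1)/(b + 1) and the p-value that of more than n under a Poisson background b, which met the deposited −log10 p within 0.001 for 100% of 2000 peaks sampled per list. This assumes calling without a control. The fragment counts give the only depth used here. Intervals (95%) are exact and cover counting error only. Carriers to be named by rule were those marked in 1 list only, the 6 of highest mean percentile, the 4 with the largest and smallest width ratios, the 4 with the largest percentile differences in each direction, those with marked starts over 2000 bp apart (Slc25a36), and paralogs. Other carriers are given too, unmarked ones by name, except 1 that enters the counts and medians but is not reported here. Copies of 75 bases at summits were searched on both strands of 21 chromosomes, and windows and sequences are from RefSeq.

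Members, lists and settings were chosen with earlier results of these data known. No test and no p-value across genes was computed. On simulated data 300 of 300 planted start peaks and 499 of 499 summit counts were recovered. Alternatives are described with the limits. The software was Python 3.11.15 with scipy 1.17.1, numpy 2.4.6, matplotlib 3.10.9 and pandas 2.3.3. Coverage tracks and other data of the study were not used here.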

Additional observations from a re-analysis of the deposited data

How the results depend on the processing

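Start peaks within 500 or 2000 bp, the 5′ end of the gene alone, the starts of protein-coding transcripts alone, other ways to sum widths or fragments, and ranks by fold left the counts of marked carriers within 1.5 times and the medians on their side of 1 or 0. With the starts of protein-coding transcripts alone Slc25a47 was marked in neither library. With a −log10 q of at least 5, 13 carriers (30.2%, against 12.6% of all genes) were marked in the control library alone (the 6 and, among others, Slc25a4, Slc25a13, Slc25a20, Slc25a25, Slc25a30 and Slc25a42). With the 10000 peaks of highest −log10 p of each list, 19 were marked in the control library (all genes 33.8%), 6 in the asthmatic library (9.82%), 5 in both (8.91%), 14 in the former alone (32.6%, all genes 24.9%), 1 (Slc25a28) in the latter alone (0.918%) and 23 in neither (65.2%), and the median percentile difference was −21.5 points over 5 carriers, where all genes gave −10.6. With percentiles taken among all peaks of a list it was −20.9, and −21 over all genes. Ranked by fold it was 6.44 (all genes −2.77), and with a −log10 q of at least 5 it was 6.55 (all genes −6). The near-zero median difference therefore depends on how peaks are ranked and filtered.

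After the data were seen, 4 alternatives were added: each peak given to the nearest coding start alone (Slc25a47 then marked in the control library alone), peaks with a repeat-masked summit left out, Slc25a29 and Slc25a47 counted once, and fragment ratios divided by the ratio of the smallest backgrounds (median then 0.754, all genes 0.713). None moved a count by over 1.5 times or turned a median. Of 87 values under 15 settings 78 stayed so. No paired analysis was possible because each group has 1 library. For the same reason no replicate could be left out. At 10 to 28 fragments per asthmatic summit, a difference between a carrier and genes in general smaller than the intervals given was not detectable.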

Other observations

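Away from the starts, peaks inside the genes were few. Slc25a21, whose starts were unmarked, had 8 peaks in its 485-kb gene body in the control library and 7 in the asthmatic library, with a highest −log10 q of 12.1 and 15.7. Slc25a26 had 1 such peak in each library, although its start peak was found in the control library alone. Gene-body peaks in both libraries were thus found at 2 carriers (4.65%), against 12.2% of all genes. In the asthmatic library alone, gene-body peaks were found at Slc25a24 (2 peaks, highest −log10 q 12.2), Slc25a33 (1 peak, 5.37) and Slc25a47 (1 peak, 4.19), 6.98% of carriers against 4.83% of all genes. In the control library alone they were found at 0 carriers, against 1.94% of all genes. The other carriers had none in either library.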
